A study of Mus musculus with 17 samples.

Results

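The genes described here are 9 interferon-stimulated genes, *Ifit1*, *Ifit3*, *Isg15*, *Irf7*, *Oasl2*, *Rsad2*, *Usp18*, *Bst2* and *Gbp2*, followed in the perigonadal white adipose tissue (pWAT) of mice with and without the long non-coding RNA *U90926*. They were taken as a listed set of textbook interferon targets, were found by Ensembl identifier, and are 9 of the 55401 gene identifiers in the data. Each was above 0 in all 17 mice. The members were measured as a value per mouse, in their co-variation between mice, and in U9-KO against WT mice within each sex.

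Interferons are secreted proteins that warn tissue of infection. Type I and type III interferons act through JAK kinases and a complex with STAT2 and IRF9, which binds an element called ISRE in the promoters of their target genes, while type II interferon (interferon gamma) acts on a partly shared set of genes. Healthy tissue keeps a low, tonic level of these transcripts, and in fat depots macrophages, other leukocytes, endothelium, adipocytes and their progenitors can all respond.

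U9-KO mice lack all exons of *U90926* on both alleles and were compared with WT littermates born to heterozygous parents. Both genotypes were C57BL/6J, ate standard chow and were 16 weeks old at collection according to the methods. No treatment set the groups apart. The cohort went through a phenotyping pipeline that included food withdrawal, blood sampling and a glucose injection. The deletion is carried by every cell, not by 1 cell type, and whole pWAT, a visceral depot around the gonads, gave 1 library per mouse. The groups held 5 WT females, 5 U9-KO females, 3 WT males and 4 U9-KO males. The study asked whether loss of this RNA, induced in macrophages by Toll-like receptor ligands and linked to adipogenesis in cultured cells, changes the pWAT transcriptome.

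The promoters of the members were searched for the letters of the ISRE core. A match does not show binding, and a window without one does not show that the gene lacks an ISRE. RefSeq promoters of GRCm38.p6, each from 250 bases before to 50 bases after the annotated start, were found for 8 of the 9 members, all but *Usp18*. The 10-letter core, GAAA followed by any 2 bases and GAAA again, was searched on both strands (TTTC, any 2 bases and TTTC on the other), and overlapping matches were kept. It lay in 6 of 8 member windows (75.0%) and in 1131 of 32851 windows of all genes (3.44%). All 6 lay before the RefSeq start. The stretches are printed with 10 bases on each side, on the strand of the gene, and capitals mark the matches. *Ifit1*, *Ifit3* and *Bst2* had 2 matches each, those of *Ifit3* in separate stretches, and *Isg15* had 3 overlapping ones.
Ifit1 (chr19:34640775-34640823, plus strand): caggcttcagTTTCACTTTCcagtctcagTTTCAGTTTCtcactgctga
Ifit3 (chr19:34583363-34583392, plus strand): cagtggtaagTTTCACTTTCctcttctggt
Ifit3 (chr19:34583397-34583426, plus strand): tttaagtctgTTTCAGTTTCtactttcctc
Isg15 (chr4:156200865-156200906, minus strand): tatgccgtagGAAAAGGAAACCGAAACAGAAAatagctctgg
Rsad2 (chr12:26456553-26456582, minus strand): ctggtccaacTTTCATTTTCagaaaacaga
Bst2 (chr8:71537577-71537612, minus strand): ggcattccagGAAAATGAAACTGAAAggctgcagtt
Gbp2 (chr3:142620594-142620623, plus strand): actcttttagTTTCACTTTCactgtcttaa
The *Ifit1*, *Ifit3* and *Gbp2* matches read on the strand opposite to the gene, as does that of *Rsad2*, and those of *Isg15* and *Bst2* read along it. The match farthest from the RefSeq start began 104 bases before it in *Ifit1*, 156 in *Ifit3*, 78 in *Isg15*, 120 in *Rsad2*, 130 in *Bst2* and 59 in *Gbp2*. GENCODE puts the start of *Gbp2* at 142620602, inside the printed stretch, and the other stretches lie upstream of the GENCODE genes. *Irf7* (chr7:141262706-141266481, minus strand) and *Oasl2* (chr5:114896936-114912234, plus strand) had no match in their windows. *Usp18* lies on the plus strand at chr6:121245906-121270917.

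The values are normalized counts, read counts divided by a size factor per library and rounded to whole numbers. They summed to between 20243688 and 28620744 over all genes of a library. Scaling seems to have been done per sex, so levels in females and males stand side by side without a test. *U90926* itself had 1 normalized count in each of 2 WT mice, female 3 and male 2, and was at 0 elsewhere, too few to check the genotype labels. Adipocyte markers (*Adipoq*, *Plin1*, *Pparg*, *Lep*, *Cidec*) summed to between 78010 and 247549 per mouse. Ovary markers summed to 69733 in WT female 4 and 85990 in U9-KO female 1 against 2827 to 19174 in the other 8 females, so the main female results are also given without these 2 mice. In whole tissue, fewer cells of a type and less RNA per cell cannot be told apart.

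None of the 9 genes passed the test of U9-KO against WT in either sex. The test was limma on log2(normalized count + 1), with Benjamini-Hochberg adjustment over all genes and a threshold of 0.05 on adjusted p. It called 0 members in females (0.0% of the 24825 genes tested) and 0 in males (0.0% of 21930). At an unadjusted p under 0.05 there was 1 member, *Rsad2*, in females, where 2.23% of genes passed, and 0 in males, where 7.6% passed. WT and U9-KO values overlapped for 9 of 9 members in each sex. Over all genes tested, the groups did not overlap for 0.238% in females and 7.6% in males. In the sentences that follow, values are in normalized counts and in the order of the replicate numbers, which do not pair the mice.

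**Figure D1:**
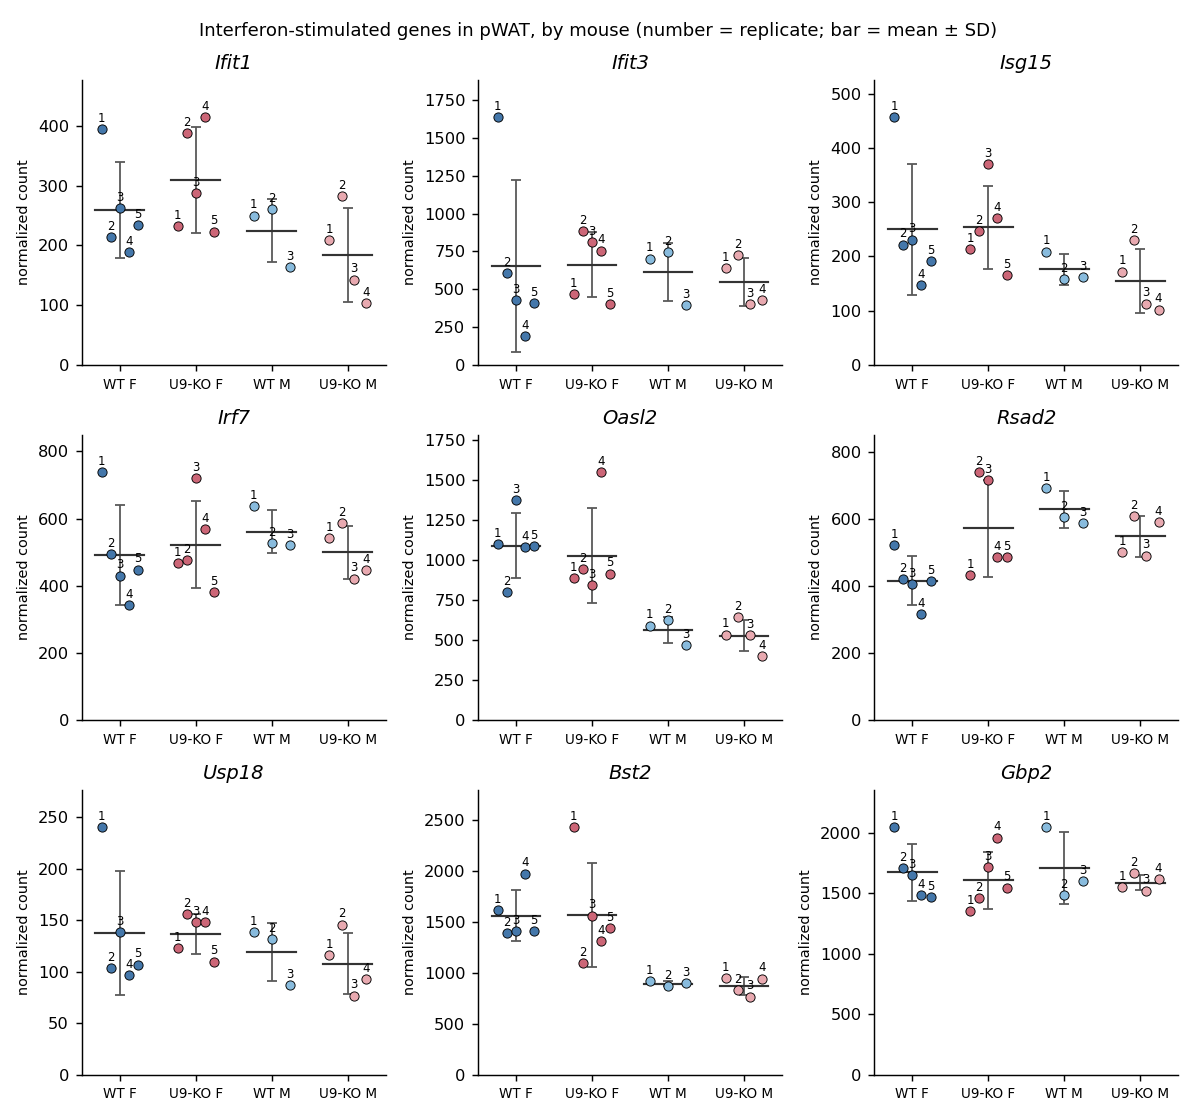
Normalized counts of the 9 genes (vertical axis of each panel, from 0) in every mouse of the 4 groups (horizontal axis). Points are mice, labelled by replicate number, and bars are the mean and SD. WT and U9-KO points overlap in every panel within each sex, and WT female 1 is the highest female for *Ifit3*, *Isg15*, *Irf7*, *Usp18* and *Gbp2*. *Oasl2* and *Bst2* lie lower in every male than in every female, which was not tested because scaling seems to have been done per sex.

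*Ifit1* and *Ifit3*, neighbours on chromosome 19, encode tetratricopeptide proteins that bind viral RNA or the proteins that sense it. *Ifit1* had 394, 214, 263, 189 and 234 in WT females and 232, 388, 287, 415 and 223 in U9-KO females. The highest WT female, replicate 1, stood beside U9-KO females 2 and 4, and the groups overlapped. The mean of the females was 259 ± 80.3 (SD, n = 5) in WT mice and 309 ± 88.4 (SD, n = 5) in U9-KO mice, a log2 fold change of 0.26 with an SE of 0.23 (adjusted p = 1 in limma's test). The 95% interval of the fold ran from 0.842 to 1.69. WT males had 250, 261 and 164 and U9-KO males 209, 283, 143 and 104. The widest spread was inside the U9-KO group, which held both the highest and the lowest male. Among males the log2 fold change was -0.35 with an SE of 0.31 (adjusted p = 0.779 in limma's test), and the fold interval ran from 0.486 to 1.26.

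*Ifit3* varied most between females. It had 1638, 609, 431, 189 and 407 in WT females and 468, 883, 811, 755 and 400 in U9-KO females. WT mice 1 and 4 held the extremes of all females, 8.67 times apart, and every U9-KO female lay between them. The means, 655 ± 569 and 663 ± 216 (SD, n = 5 each), were close, and the log2 fold change of 0.32 had an SE of 0.47 (adjusted p = 1 in limma's test). WT males had 702, 745 and 393 and U9-KO males 641, 727, 404 and 429. Each male group held high mice, from 641 upwards, and low ones, at 429 or less. Among males it was -0.15 with an SE of 0.26 (adjusted p = 0.895 in limma's test). *Ifit3* shares 18.5% of its 150-base transcript stretches with the near copy *Ifit3b*, so its reads may have been split between the genes in a way the sources used here do not give. For *Ifit1* the share with *Ifit1bl2* was 1.24%, and for the other 7 members it was 0.

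*Isg15* encodes a ubiquitin-like protein that is attached to other proteins, and *Usp18* the protease that removes it and also restrains the type I interferon receptor. *Isg15* had 457, 222, 231, 147 and 192 in WT females and 214, 247, 370, 271 and 165 in U9-KO females. WT female 1 stood above all others, and U9-KO female 3 was next. Between the female groups the log2 fold change was 0.08 with an SE of 0.29 (adjusted p = 1 in limma's test), and the fold interval ran from 0.682 to 1.64. WT males had 209, 158 and 162 and U9-KO males 172, 230, 113 and 102. U9-KO males 3 and 4 were below every WT male and U9-KO male 2 above. The male log2 fold change was -0.26 with an SE of 0.26 (adjusted p = 0.815 in limma's test).

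*Usp18* was the lowest member. WT females had 241, 104, 139, 97 and 107 and U9-KO females 123, 156, 148, 148 and 110. The U9-KO values all lay inside the WT range, with an SD of 60.0 in the WT and 19.5 in the U9-KO group. The female log2 fold change was 0.07 with an SE of 0.24 (adjusted p = 1 in limma's test). WT males had 139, 132 and 87 and U9-KO males 116, 146, 77 and 93. As for *Ifit3*, replicates 1 and 2 of both genotypes were above the other 3 males. The male log2 fold change was -0.15 with an SE of 0.24 (adjusted p = 0.884 in limma's test).

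*Irf7* encodes the transcription factor that interferon induces and that in turn drives more type I interferon genes. It had 739, 495, 430, 342 and 448 in WT females and 468, 475, 720, 568 and 381 in U9-KO females. WT female 1 and U9-KO female 3 were close together at the top, and WT female 4 was the lowest. The female log2 fold change was 0.10 with an SE of 0.21 (adjusted p = 1 in limma's test), and the fold interval ran from 0.781 to 1.48. WT males had 636, 526 and 521 and U9-KO males 541, 586, 421 and 447. U9-KO males 3 and 4 were again the lowest. The male log2 fold change was -0.18 with an SE of 0.13 (adjusted p = 0.751 in limma's test), and the fold interval ran from 0.722 to 1.09. *Irf7* overlaps *Phrf1* on the opposite strand, as *Usp18* does *Gm44148* and *Gbp2* does *Mir6381*. The library kit kept strand, and the sources used here do not say whether the counting used it.

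*Rsad2* encodes viperin, an enzyme on lipid droplets and the endoplasmic reticulum that makes a chain-terminating nucleotide. It had the smallest unadjusted p of the 9 members in each sex, with the mean higher in U9-KO females and lower in U9-KO males. WT females had 521, 420, 405, 316 and 414 and U9-KO females 431, 740, 715, 485 and 486. U9-KO females 2 and 3 were above every WT female, and the other 3 U9-KO females lay below WT female 1. The WT mean was 415 ± 72.7 and the U9-KO mean 571 ± 144 (SD, n = 5 each), a 1.36-fold difference with a 95% interval from 1.04 to 1.78. The unadjusted p was 0.030 and the adjusted p 1 in limma's test, and the two-sided exact permutation test gave p = 0.0794, where the smallest p possible is 0.00794. WT males had 692, 606 and 588 and U9-KO males 501, 607, 490 and 591. U9-KO males 1 and 3 were below every WT male, and the others were within the WT range. The male log2 fold change was -0.20 with an SE of 0.11 (unadjusted p = 0.0882, adjusted p = 0.674 in limma's test; exact permutation p = 0.286, smallest possible 0.0571).

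*Oasl2* encodes an oligoadenylate synthetase-like protein of the RNA-sensing OAS family. It had 1098, 801, 1376, 1079 and 1088 in WT females and 885, 945, 841, 1551 and 915 in U9-KO females. In females, U9-KO mouse 4 stood alone above the rest, and the other 4 U9-KO mice lay below 4 of the 5 WT mice. The female log2 fold change was -0.10 with an SE of 0.18 (adjusted p = 1 in limma's test). WT males had 590, 623 and 470 and U9-KO males 534, 643, 532 and 401. The groups overlapped over most of their range. The male log2 fold change was -0.10 with an SE of 0.16 (adjusted p = 0.886 in limma's test).

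*Bst2* encodes tetherin, a membrane protein that holds budding enveloped viruses at the cell surface. WT females had 1613, 1391, 1412, 1974 and 1410 and U9-KO females 2433, 1099, 1561, 1309 and 1435. The 2 highest females were U9-KO female 1 and WT female 4, the mice with the high ovary markers. Across genotypes the female log2 fold change was -0.03 with an SE of 0.19 (adjusted p = 1 in limma's test). WT males had 921, 868 and 897 and U9-KO males 949, 828, 768 and 943. The males lay close together, with 7.47% as the coefficient of variation over 7 mice, the lowest of any member. Among males it was -0.04 with an SE of 0.09 (adjusted p = 0.916 in limma's test), and the fold interval ran from 0.841 to 1.12.

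*Gbp2* encodes a guanylate-binding GTPase that acts on vacuoles of intracellular pathogens and is induced strongly by interferon gamma. It had 2052, 1707, 1650, 1489 and 1470 in WT females and 1355, 1459, 1718, 1962 and 1548 in U9-KO females. WT female 1 was again the highest, ahead of U9-KO female 4. Across genotypes the female log2 fold change was -0.06 with an SE of 0.12 (adjusted p = 1 in limma's test), and the fold interval ran from 0.797 to 1.16. WT males had 2048, 1484 and 1602 and U9-KO males 1554, 1669, 1523 and 1616. WT male 1 stood above the other 6 males, which lay between 1484 and 1669. Among males it was -0.09 with an SE of 0.11 (adjusted p = 0.839 in limma's test).

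As a group the members had no common direction in females. The log2 fold change was above 0 for 6 and below 0 for 3, with a median of 0.08, where 49.9% of all genes tested were above 0 and their median was 0. Without WT female 1 the median of the members was 0.29, and without WT female 4 it was -0.03. Without the 2 females rich in ovary markers, 5 members were above 0 and 4 below, with a median of 0.0025, and 0 members were called. The unadjusted p of *Rsad2* in females was 0.0273 without those 2 mice, but with 1 female left out it was 0.05 or more in 4 of 10 fits, at 0.0512 without WT female 3, 0.0752 without WT female 4, 0.0813 without U9-KO female 2 and 0.0753 without U9-KO female 3. In males the log2 fold change was below 0 for 9 of 9 members, between -0.35 and -0.04 with a median of -0.15, where 49.9% of all genes were below 0. With 1 male left out it was below 0 for 8 or 9 members. The members co-varied over the same males, so their signs are not separate observations. None of the 9 differences passed limma's test, and 0 had an unadjusted p under 0.05. Without WT male 1 the fit called 71 genes, 0 of them members, and the median of the members was -0.06.

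The difference of the genotype effect between the sexes was tested with an interaction term in a fit of all 17 mice. No member passed (0.0% of 26289 genes did). The effect was lower in males than in females for 8 of 9 members, where 50.2% of all genes were, with a median log2 difference of -0.28 against -0.0018 over all genes. That median ran from -0.45 without WT female 1 to -0.12 without WT female 4, with 6 to 9 members below 0 when 1 mouse was left out, and was -0.17 with the replicate number as a block, -0.17 without U9-KO male 4 and -0.19 without the 2 females rich in ovary markers. For *Rsad2* the difference was -0.64 with an SE of 0.24 (unadjusted p = 0.0156, adjusted p = 1 in limma's test), and 3.46% of all genes had an unadjusted p under 0.05. The 8 other members had an unadjusted p of 0.156 or more. Here too the signs of the members come from the same mice and are not separate observations.

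**Figure D2:**
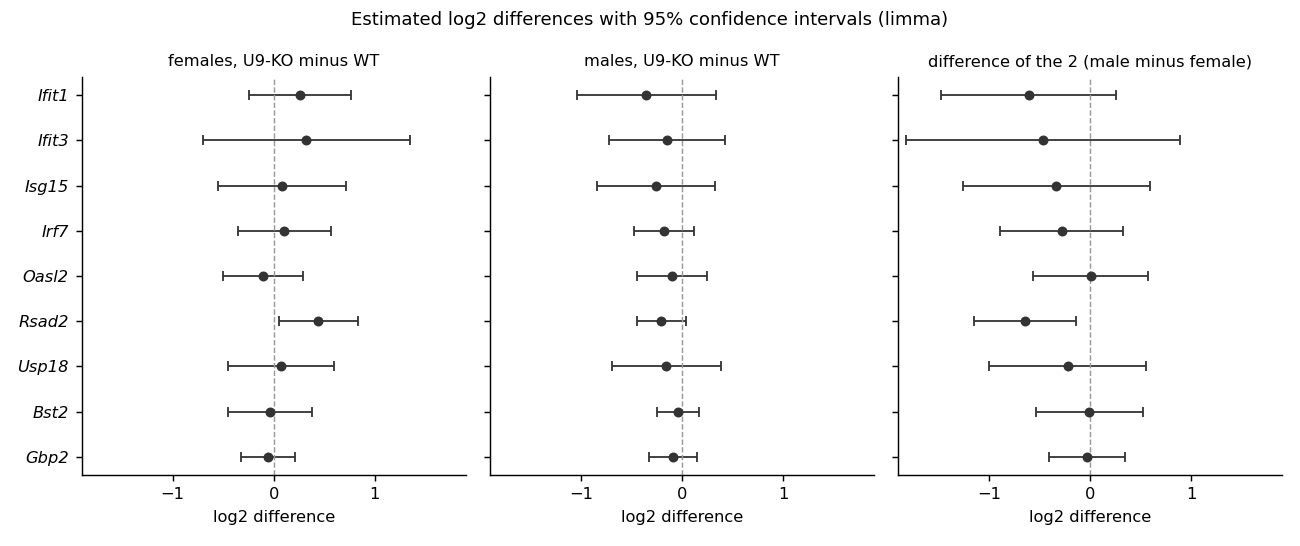
Estimated log2 differences (horizontal axis) for each gene (vertical axis) with 95% confidence intervals from limma, for U9-KO minus WT in females, in males, and for the male effect minus the female effect. All intervals cross 0 but those of *Rsad2* in females (0.05 to 0.83) and in the difference of the sexes (-1.15 to -0.14), neither of which passed after adjustment.

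Several mice were high or low over most of the members. WT female 1 was above the mean of the females for 9 of 9 genes, among the top 3 for 9 and the highest for 5, and its mean log2 deviation over the members was 0.56. WT female 4 was the lowest female for 6 genes, with a mean deviation of -0.45, yet the second highest for *Bst2*. U9-KO females 3 and 4 were above the mean for 8 genes each, and U9-KO females 1 and 5 and WT female 5 for 1 each. Among the males, WT male 1 was above the mean for 9 genes and U9-KO male 2 for 8, with mean deviations of 0.28 and 0.26. U9-KO males 3 and 4 had mean deviations of -0.30 and -0.29. In females, mice with high and with low values were thus found in both genotypes. In males, high mice were found in both genotypes, but the 2 lowest mean deviations were both in U9-KO mice. The lowest WT male, replicate 3, had a mean deviation of -0.13 and was above the mean for 4 genes.

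**Figure D3:**
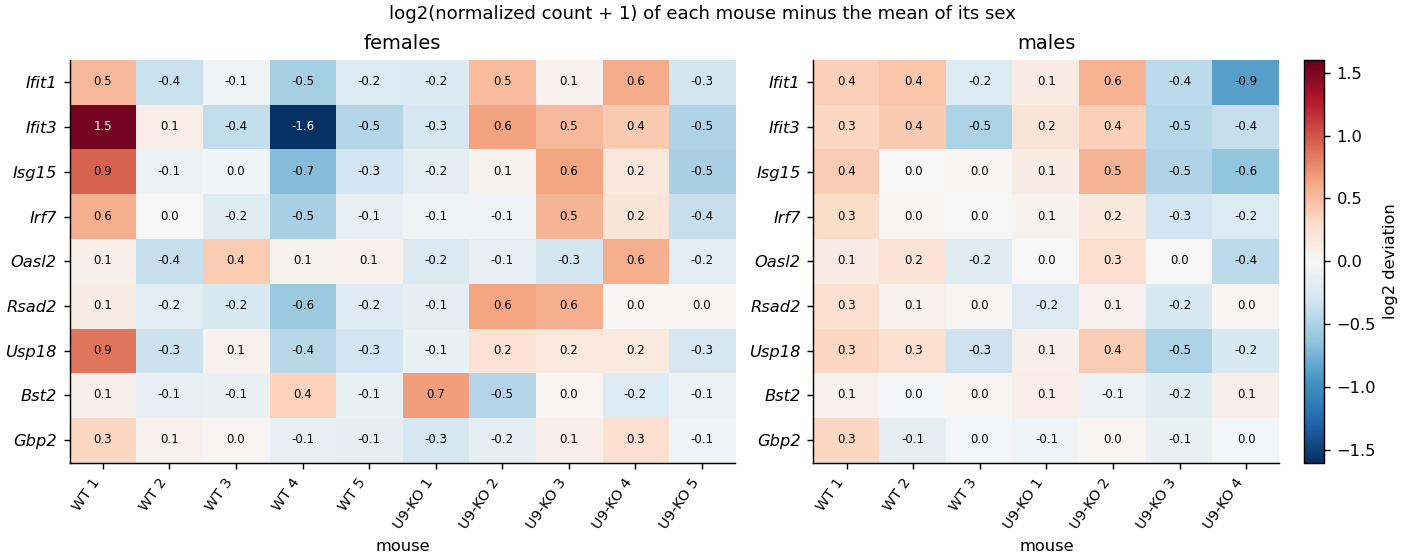
Each cell is log2(normalized count + 1) of a gene (rows) in a mouse (columns) minus the mean of that gene over the mice of the same sex, with red above and blue below. WT female 1 is above the mean in all 9 rows and WT female 4 below it in 7, and U9-KO males 3 and 4 have mean deviations of -0.30 and -0.29.

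Pairs of members were therefore correlated over the mice of each sex, on log2(normalized count + 1). There were 36 pairs in each sex, with p-values from permutation tests and Benjamini-Hochberg adjustment over the 36. In females 25 of 36 pairs were positive, the median Pearson r was 0.61 and 8 pairs had an adjusted p under 0.05. In males 34 of 36 were positive, with a median of 0.61, and 3 pairs had an adjusted p under 0.05. Over all pairs of genes whose mean reached 50, 14003 in females and 13103 in males, the median r was 0.0. Centring each genotype on its own mean gave 13 pairs in females and 3 in males, so the co-variation was present within genotypes. Without U9-KO female 2 there were 16 pairs in females, and without the 2 females rich in ovary markers 6. In males the count was between 0 and 2 when any 1 of the 7 was left out, which also leaves fewer mice for the test, and 0 by Spearman's rho.

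The 8 female pairs all lay among *Ifit1*, *Ifit3*, *Isg15*, *Irf7* and *Usp18*, which have 10 pairs between them. The closest was *Isg15* with *Irf7* (n = 10). Their r was 0.97 (permutation p = 2e-05 from 100000 resamples, adjusted p = 0.00072) and their rho 0.90 (permutation p = 0.00094, adjusted p = 0.00846). Leaving out the 2 mice farthest from the median, WT female 1 and U9-KO female 3, r was 0.92. *Ifit3* and *Isg15* had r = 0.91 (permutation p = 9e-05, adjusted p = 0.00162) and rho = 0.93 (permutation p = 0.00028, adjusted p = 0.00708), and r = 0.78 without WT females 1 and 4. For *Isg15* and its protease *Usp18*, r was 0.89 (permutation p = 0.00023, adjusted p = 0.00245) and rho 0.88 (permutation p = 0.0017, adjusted p = 0.0122), with r = 0.83 without WT female 1 and U9-KO female 3. *Ifit3* and *Usp18* had 4 called partners each, *Isg15* and *Irf7* 3 and *Ifit1* 2.

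*Oasl2* and *Bst2* stood outside this set in females. The median r of *Oasl2* with the other 8 members was 0.02 in females and 0.67 in males. *Bst2* was negative with 8 of 8 members in females, with r between -0.49 and -0.13, and had a median r of 0.19 in males. Those female signs rest on the 2 mice rich in ovary markers: without them *Bst2* was positive with 5 members and negative with 3, with a median r of 0.17 and values from -0.26 to 0.50, while *Oasl2* had a median r of 0.01. No pair with either gene passed without these 2 mice. No pair with *Oasl2*, *Rsad2*, *Bst2* or *Gbp2* passed in females.

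In males the closest pair was *Ifit3* with *Usp18*, with r = 0.96 (exact permutation p = 0.00258, adjusted p = 0.0452) and rho = 0.86 (exact permutation p = 0.0238, adjusted p = 0.122), n = 7. Without WT male 3 and U9-KO male 3, r was 0.94. *Ifit1* with *Oasl2* had r = 0.93 (exact permutation p = 0.00258, adjusted p = 0.0452), rho = 0.96 (exact permutation p = 0.00278, adjusted p = 0.1) and r = 0.996 without U9-KO males 3 and 4. *Ifit1* with *Isg15* had r = 0.90 (exact permutation p = 0.00377, adjusted p = 0.0452) and rho = 0.79 (exact permutation p = 0.048, adjusted p = 0.157). Without U9-KO males 3 and 4 its r was 0.60, so that relation rests in part on these 2 mice.

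**Figure D4:**
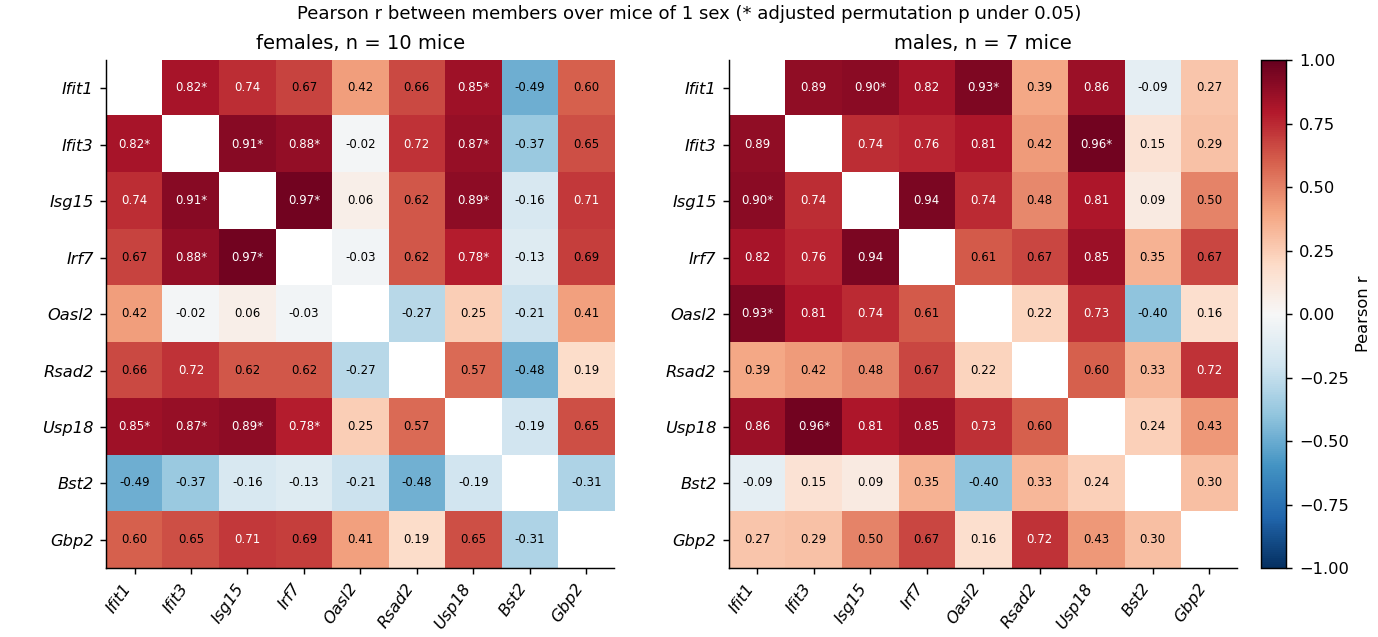
Pearson r between each pair of the 9 genes over the 10 females (left) and the 7 males (right), on log2(normalized count + 1), with an asterisk where the adjusted permutation p was under 0.05. The 8 marked female pairs lie among *Ifit1*, *Ifit3*, *Isg15*, *Irf7* and *Usp18*, and the *Bst2* row is negative throughout in females.

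The genes whose pattern over the mice was most like the mean of the 9 members were named by Pearson r among genes with a mean of at least 50, with no test. In the 10 females they were *Ifit3b* (r = 0.96), *Cmpk2* (0.95), *Gbp7* (0.93), *Iigp1* (0.92), *Gbp3* (0.91), *Ifi44* (0.91), *Irgm2* (0.90), *Trim30a* (0.90), *Zmynd11* (0.89) and *Hdac9* (0.89). The first 8 of these were on the lists of interferon-responsive genes used here. In the 7 males the 10 genes included *Piga* (r = 0.94), *Rab6b* (0.92), *Crtap* (0.91), *Slfn8* (0.91), *Tmem246* (0.91), *Fam205a3* (0.91), *Galt* (0.90), *Fam205a2* (0.90) and *Dusp23* (0.90), and of these 9 only *Slfn8* was on a list. Set against the mean of the other 8 in the same way, *Isg15* had r = 0.95, *Usp18* 0.93 and *Bst2* -0.36 in females, and *Usp18* had 0.94, *Irf7* 0.92 and *Bst2* 0.10 in males.

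Marker genes of 12 other cell types or tissues were set beside the members, with 108 correlations in each sex. None had an adjusted p under 0.05 by permutation, with the smallest at 0.306 in females and 0.421 in males. Marker levels were taken as the mean log2 level of a list. The ovary markers had r = 0.79 with *Bst2* in the 10 females (permutation p = 0.0122, adjusted p = 0.306) and rho = 0.43 (permutation p = 0.221, adjusted p = 0.663). Without WT female 4 and U9-KO female 1, r was -0.05, so the relation rests on those 2 mice. With *Ifit3*, the ovary markers had r = -0.70 (permutation p = 0.0242, adjusted p = 0.306) and rho = -0.60 (permutation p = 0.0735, adjusted p = 0.662), and r was -0.60 without the same 2 mice. The adipocyte markers had r = 0.79 with *Ifit3* (permutation p = 0.00537, adjusted p = 0.306) and rho = 0.68 (permutation p = 0.0343, adjusted p = 0.475), and r was 0.62 without those 2 mice. *Rsad2* had its highest values of r in females with endothelium markers (r = 0.80, permutation p = 0.00661, adjusted p = 0.306; rho = 0.61, permutation p = 0.0678, adjusted p = 0.662), and r was 0.48 without WT female 4 and U9-KO female 3. With adipocyte markers it had r = 0.76 (permutation p = 0.00916, adjusted p = 0.306) and with neutrophil markers r = 0.72 (permutation p = 0.0183, adjusted p = 0.306), which became 0.61 and 0.03 without the 2 mice farthest from the median of each list. In males the highest r was that of *Oasl2* with mesothelium markers (r = 0.88, exact permutation p = 0.00873, adjusted p = 0.421; rho = 0.71, exact permutation p = 0.0881, adjusted p = 0.939), and it was 0.33 without WT male 3 and U9-KO male 4. The part of tissue composition in these patterns was not tested.

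**Figure D5:**
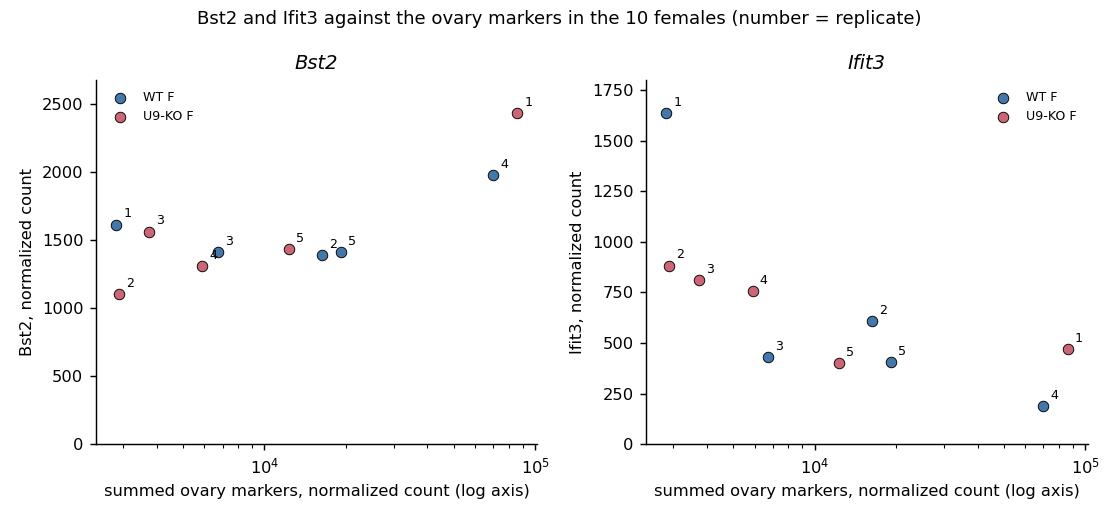
Normalized counts of *Bst2* and *Ifit3* (vertical axes, from 0) against the summed ovary markers (horizontal axis, logarithmic) in the 10 females, labelled by replicate number. WT female 4 and U9-KO female 1 lie far to the right, at 69733 and 85990, where *Bst2* is at 1974 and 2433 and *Ifit3* at 189 and 468.

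In males, markers of macrophages and B cells were lower in U9-KO mice, as were most genes of the other leukocyte lists. Of the genes tested, 4 of 4 were lower for plasmacytoid dendritic cells, 4 of 4 for neutrophils, 6 of 7 for T and natural killer cells and 4 of 5 for plasma cells. Many were low: only 2 of 5 plasmacytoid dendritic cell genes in WT and 1 of 5 in U9-KO males had a mean of at least 10. For neutrophils it was 2 of 5 in each genotype. The most abundant genes of these 2 lists, *Siglech* and *Csf3r*, had male log2 fold changes of -0.02 and -0.56. Over the males, r with the members ran from -0.24 (*Gbp2*) to 0.45 (*Rsad2*) for macrophage markers and from 0.03 (*Gbp2*) to 0.55 (*Ifit3*) for B cell markers. Without WT male 2 and U9-KO male 3, r with macrophage markers ran from -0.70 (*Ifit3*) to 0.25 (*Rsad2*), and only that of *Rsad2* was positive. Without WT males 1 and 2, r with B cell markers ran from -0.05 (*Ifit3*) to 0.59 (*Rsad2*). Macrophage markers summed to between 26431 and 43758 in WT and between 19857 and 26005 in U9-KO males, with log2 fold changes below 0 for 7 of 7 genes and an unadjusted p under 0.05 for 4, where 4.09% of all genes were lower at that level. B cell markers summed to between 295 and 730 in WT and between 214 and 243 in U9-KO males, with 4 of 4 genes lower at an unadjusted p under 0.05. None of these genes passed after adjustment. Neither sum overlapped between the male genotypes, and the groups did not overlap for 7.6% of all genes tested in males. The macrophage sums nearly met, at 26431 in the lowest WT and 26005 in the highest U9-KO male. The sum of the 9 members, 4884 to 6187 in WT and 4471 to 5719 in U9-KO males, overlapped. In females the macrophage markers summed to between 13315 and 24959 in WT and between 12657 and 22913 in U9-KO mice, with 7 of 7 genes below 0 on the log2 fold scale and 0 at an unadjusted p under 0.05. No gene of the macrophage or B cell list was at 0.

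Other marker lists had higher values in U9-KO females, as *Rsad2* did. Plasma cell markers had log2 fold changes above 0 for 5 of 5 genes, with a median of 1.54 and 3 genes at an unadjusted p under 0.05, where 1.24% of all genes were higher at that level. *Jchain* encodes the joining chain of secreted antibodies and was named after its values were seen. It had 113 to 341 in WT and 576 to 3471 in U9-KO females (unadjusted p = 0.000521, adjusted p = 1 in limma's test). The genotypes did not overlap, as for 0.238% of all genes tested in females. The plasma cell sum was between 4689 and 5672 in WT and between 5500 and 10126 in U9-KO females, with the highest in U9-KO female 3. Most of that sum was *Xbp1*, with means of 5052 in WT and 5295 in U9-KO females and a log2 fold change of 0.06. Endothelium markers were above 0 for 4 of 4 genes, with a median of 0.21 and sums of 10443 to 16758 in WT and 13431 to 23018 in U9-KO females. Neutrophil markers were above 0 for 4 of 4 genes tested, with a median of 0.44 and sums of 105 to 203 and 144 to 432. *Csf3r* was the most abundant of them, at means of 147 in WT and 156 in U9-KO females, and *Ly6g*, a defining gene of that list, was at 0 in every female. None of these genes passed after adjustment, and the part of any of these cells in the values of the members was not tested.

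Levels were compared between genes per kilobase of annotated exons. In females the mean per kilobase was highest for *Bst2* (1732 ± 421 normalized counts, SD, n = 10), followed by *Gbp2* (652 ± 89.7), *Ifit3* (378 ± 233), *Isg15* (333 ± 126), *Oasl2* (166 ± 37.8), *Irf7* (134 ± 35.1), *Rsad2* (114 ± 31.3), *Ifit1* (107 ± 31.6) and *Usp18* (49.2 ± 15.1). *Bst2* did not overlap with *Gbp2*, and each of the other neighbours in this order overlapped. *Isg15* was above *Oasl2* and *Ifit1* above *Usp18* in 10 of 10 females, whereas *Ifit3* was above *Isg15* in 5. In males the means ran from 977 ± 73.0 for *Bst2* and 653 ± 75.2 for *Gbp2* to 40.5 ± 9.82 for *Usp18* (SD, n = 7), with *Oasl2* at 85.0 ± 13.5 below *Irf7* at 139 ± 19.7 and *Rsad2* at 134 ± 15.9. In males *Bst2* did not overlap with *Gbp2*, *Gbp2* with *Ifit3*, or *Rsad2* with *Oasl2*, and the other neighbours overlapped. Annotated exons include retained introns, and with the longest coding transcript as the length *Irf7* was at 226 in females and *Oasl2* at 339, above *Isg15*. With that length the order of the males changed too, with *Irf7* (235) above *Isg15* (217) and *Oasl2* (174) above *Rsad2* (154), and the last pair then overlapped.

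The lowest female lay above the highest male for *Oasl2* (801 against 643) and for *Bst2* (1099 against 949). For the other 7 members the sexes overlapped. The share of all genes whose values did not overlap between the sexes was not computed. Since scaling seems to have been done per sex, no difference between the sexes is read from these values. Between mice, the coefficient of variation in females was highest for *Ifit3* (61.6%), *Isg15* (37.8%) and *Usp18* (30.6%) and lowest for *Gbp2* (13.8%), beside a median of 16.2% over the 14003 genes whose mean reached 50. In males it was highest for *Ifit1* (33.2%), *Isg15* (28.4%) and *Ifit3* (27.9%), beside a median of 11.0%.

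The steps before the members were described in the same fits. Of the interferons themselves, 10 genes of type I, II and III were looked up, and their sum was between 0 and 4 normalized counts per female and between 0 and 9 per male. *Ifng*, which encodes interferon gamma, had between 2 and 9 in WT males and between 0 and 2 in U9-KO males (adjusted p = 0.669 in limma's test), and the other 9 genes were too low to be tested. The receptor chains were well covered, with *Ifngr1* at 2582 in WT and 2407 in U9-KO females and at 5296 and 4769 in males (means), followed by *Ifnar1* and *Ifnar2*. Of 6 receptor genes, 5 had a log2 fold change below 0 in females and 6 in males, and 0 passed the test. Among the genes that carry the signal from the receptors, *Jak1*, *Stat2* and *Jak2* stood at -0.06, 0.19 and -0.06 on the log2 fold scale for females and at -0.03, -0.06 and 0.06 for males, and none of them passed the test. *Irf9*, the DNA-binding partner of STAT2, had 714 to 779 in WT and 630 to 674 in U9-KO males (log2 fold change -0.22, SE 0.08, adjusted p = 0.612 in limma's test). The genotypes did not overlap, as for 7.6% of all genes tested in males. *Irf9* was named after its values were seen.

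Of 10 nucleic acid sensors and adaptors, 4 were above 0 and 6 below 0 in each sex, and 0 passed. The most abundant were *Mavs*, *Ddx58* and *Ifih1*, with female log2 fold changes of 0.14, -0.07 and -0.10 and male ones of 0.09, 0.03 and 9.3e-05. Larger male changes, named after their values were seen, were those of *Tlr7* (-0.58) and *Tlr9* (-0.84). Among 5 other interferon regulatory factors, *Irf3*, *Irf2* and *Irf1* had -0.01, 0.08 and 0.01 in females and 0.08, 0.13 and -0.19 in males. *Irf5*, also named after its values were seen, had 433 to 567 in WT and 357 to 388 in U9-KO males (log2 fold change -0.40). The genotypes did not overlap for *Irf5*, as for 7.6% of all genes tested in males. The enzymes that attach the *Isg15* product, *Uba7*, *Ube2l6* and *Herc6*, had -0.05, -0.01 and 0.10 in females and -0.08, -0.12 and 0.04 in males. None of these genes passed the test in either sex.

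The interferon gamma-inducible GTPases and antigen presentation genes, the group nearest to *Gbp2*, had log2 fold changes of opposite sign in the sexes. Of 20 genes, 19 had a log2 fold change above 0 in females, with a median of 0.16, and 19 had one below 0 in males, with a median of -0.21, where 49.9% of all genes were above 0 in females and 49.9% below 0 in males. The effect was lower in males for 19 of 20 in the fit of the difference, with a median of -0.35, where 50.2% of all genes were lower, and 6 had an unadjusted p under 0.05, all lower in males, where 1.97% of all genes were. No gene passed after adjustment in any of the 3 fits. The sum of the list overlapped between the genotypes, at 9659 to 17084 in WT and 11819 to 16364 in U9-KO females. In males it was 13588 to 17002 in WT and 11837 to 14058 in U9-KO mice. The 20 genes were measured in the same few mice, so their signs are not separate observations. These counts were not repeated with a mouse left out. The most abundant, *Gbp9*, *Gbp7* and *Irgm2*, had female log2 fold changes of 0.15, 0.03 and 0.04 and male ones of -0.13, -0.07 and -0.33. *Ciita*, the activator of MHC class II genes, had the smallest unadjusted p of the group. It had 346 to 427 in WT and 195 to 294 in U9-KO males (log2 fold change -0.69, SE 0.15, adjusted p = 0.612 in limma's test). The genotypes did not overlap, as for 7.6% of all genes tested in males. *Ciita* was named after its values were seen. *Gbp2* itself was at -0.06 in females and -0.09 in males, so its values did not show the opposite signs of that list.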

How the data were processed

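RNA of whole pWAT from 17 mice was sequenced as paired-end, stranded libraries. The authors aligned the reads with STAR (2.7.3a in the submitters' processing notes, genome GRCm38), counted them per gene and normalized them with DESeq2 1.28.1. Each deposited value is taken here as a score, a read count that the authors scaled by the size factor of its library and rounded. Because of the rounding they are not raw counts and no count model was run, although the design had allowed for one. From the steps between values, size factors of 0.757 to 1.23 were estimated, weakly so for WT male 1. Groups of 3 to 5 mice limit the precision.

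Groups came from the sample labels. For 2 males the replicate number in the column name differs from the label, which was followed. Identifiers were named with GENCODE M21 (GRCm38), which named 55141 of 55401. Genes whose values summed to 10 or more in a fit were tested on log2(normalized count + 1), a scale that understates changes of low genes, with limma 3.58.1 (lmFit, eBayes with trend) in R 4.3.3, in females, in males and with a sex by genotype interaction. The fits were tested on simulated data. Single genes and correlations were tested by two-sided permutation (Python 3.11.15, scipy 1.17.1, numpy 2.4.6, pandas 2.3.3). Permutations were exact in males and for single genes, and 100000 resamples were drawn for correlations over 10 females.

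Named genes were the 9 members, *U90926*, the 3 most abundant genes of a list where none passed the test, and the 10 genes most like the mean of the members. Others are said to have been chosen after their values were seen. A few genes that these rules reach are not reported here. The members and lists were chosen with earlier results of these data known. Alternatives were to drop the filter, to require 10 or more in each mouse, a pseudocount of 0.5, no trend, robust empirical Bayes, median-of-ratios scaling (in place of TMM, whose package needs counts), quantile normalization, a single fit of all 17 mice, a block for replicate numbers, each mouse left out, and for pairs also Spearman's rho and genotype-centred values. Chosen after seeing the data were leaving out the 2 females with the highest ovary markers, Spearman's rho for markers, another transcript length and a shorter promoter window. Mice of a group are separate animals.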

Additional observations from a re-analysis of the deposited data

Results flagged for a closer look

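In 3 of the 27 groups of 4 or 5 mice examined, 1 mouse lay far from the others of its group by Dixon's criterion, where about 1 in 20 groups, here 1.35, would do so by chance. *Ifit3* was at 1638 normalized counts in WT female 1, with the other WT females between 189 and 609, a gap of 0.71 of the range that was only just past the critical value. *Isg15* was at 457 in the same mouse, with the others between 147 and 231 and a gap of 0.73 of the range. *Oasl2* was at 1551 in U9-KO female 4, with the others between 841 and 945 and a gap of 0.85 of the range. Groups of 3 WT males were not examined.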

How the results depend on the processing

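No member was called under any alternative run in females, in males or for the difference between the sexes. Over all genes the count of calls was 1 without the trend in females and in males, 1 without the filter for the difference, and 0 to 71 in males with 1 mouse left out (71 without WT male 1, 0 without each of the other 6). Genes at an unadjusted p under 0.05 numbered 410 to 1225 in females with 1 mouse left out, 873 without the filter and 194 with at least 10 in every mouse. The corresponding numbers were 1179 to 3345 in males and, for the difference, 795 to 1076 and 380 with at least 10 in every mouse. Pairs with an adjusted p under 0.05 numbered 6 to 16 in females and 0 to 2 in males with 1 mouse left out, 13 in females on genotype-centred values and 0 in males by Spearman's rho. The median r with 1 mouse left out ran from 0.45 to 0.63 for females and from 0.36 to 0.72 for males.

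Same-numbered mice had correlations between -0.48 and 0.19, so the numbers do not pair them. The fit with the replicate number as a block, in which U9-KO male 4 has no partner and adds nothing, called 0 genes, with 456, 1393 and 777 genes at an unadjusted p under 0.05 in females, males and the difference, and put *Oasl2* at 0.027 in males. Without the 2 females rich in ovary markers *Isg15* was at -0.035 in females, and for the difference *Oasl2* was at -0.042 and *Bst2* at 0.074. For the difference, *Oasl2* was also at -0.0015 with median-of-ratios scaling and *Bst2* at 0.016 with quantile normalization.

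With 1 mouse left out, log2 fold changes that took both signs in females were those of *Ifit3* (-0.032 to 0.74), *Isg15* (-0.083 to 0.32), *Irf7* (-0.019 to 0.26), *Usp18* (-0.033 to 0.29), *Bst2* (-0.21 to 0.081) and *Gbp2* (-0.13 to 0.017). In males they were *Ifit3* (-0.44 to 0.021), *Oasl2* (-0.22 to 0.027), *Bst2* (-0.086 to 0.016) and *Gbp2* (-0.19 to 0.044), and for the difference *Oasl2* (-0.12 to 0.16), *Bst2* (-0.12 to 0.16) and *Gbp2* (-0.13 to 0.10). *Rsad2* stayed between 0.34 and 0.53 in females, with an unadjusted p of 0.05 or more in 4 of 10 fits. The cause of these shifts was not tested, beyond the smaller number of mice.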

Other observations

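Among 37 further interferon-stimulated genes, the most abundant in pWAT was *Ifi27l2a*, with a range of 7898 to 22016 normalized counts in WT and 9438 to 20063 in U9-KO females and of 11841 to 32622 in WT and 20096 to 26603 in U9-KO males. *Ly6e* and *Slfn5* followed, with female log2 fold changes of 0.04 and 0.14 and male ones of -0.23 and -0.07. In females 20 of the 37 were above 0 and 17 below, and in males 5 of 36 tested were above 0 and 31 below, with a median of -0.12. These signs come from the same few mice and are not separate observations. None passed limma's test after adjustment. *Mx1*, an antiviral GTPase, had 38 to 113 in WT and 85 to 166 in U9-KO females (log2 fold change 0.77, unadjusted p = 0.0254, adjusted p = 1 in limma's test), and was named after its values were seen. The ISRE core lay in 16 of the 36 promoter windows found for this list (44.4%), in 9 of 14 for the GTPases and antigen presentation genes (64.3%) and in 0 of 5 for the receptor chains.

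The inhibitors of cytokine signalling had wide ranges in females. *Cish*, a STAT5-induced inhibitor, was between 505 and 1222 in WT and between 130 and 1558 in U9-KO females, and between 55 and 127 over both male groups. *Socs3* was between 265 and 1026 over the females and between 208 and 297 over the males, and *Socs1* between 106 and 200 and between 86 and 125. These levels were set side by side without a test.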
